A study of Mus musculus with 14 samples.

Results

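Peripherin (Prph), the neurofilament subunits (Nefl, Nefm, Nefh), alpha-internexin (Ina) and nestin (Nes) are intermediate filament genes of neurons and their precursors, and Map2, Mapt, Tubb3 and Stmn2 encode a tubulin and regulators of the microtubules beside them. The members were these 10 genes of the 18193 that had a probe set of their own, and every probe set of each was taken, 25 of the 45037 tested. They were chosen by earlier readings of the genotype comparison in these same arrays, in which Prph stood out, so their differences between genotypes are given as a description and no member carries a p-value for them.

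Intermediate filaments are rope-like polymers that fill axons and set their calibre. Neurofilaments assemble from a light, a medium and a heavy subunit together with alpha-internexin or peripherin, and peripherin is best known from neurons that send axons to the periphery, such as motor and sensory neurons. Microtubules, built from alpha- and beta-tubulin, are the tracks of axonal transport, and proteins of the MAP and stathmin families stabilise or dismantle them. Midbrain dopaminergic neurons carry very long, highly branched axons, and both systems are needed to maintain them.

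The study asked how loss of transferrin receptor 1 (Tfr1, gene Tfrc), the receptor through which cells take up iron bound to transferrin, alters the mRNA that dopaminergic neurons translate. RiboTag mice carry a tagged ribosomal protein in a chosen cell type, so that ribosomes of that type, with the mRNA on them, can be precipitated from a whole-tissue lysate. Here ventral midbrain was used, and each library was 1 Affymetrix array. The groups were control at 3 weeks (n = 3), Tfr1-null at 3 weeks (n = 4), control at 10 weeks (n = 4) and Tfr1-null at 10 weeks (n = 3), which the series describes as an early and a late stage of degeneration. In Tfr1-null mice Tfr1 was deleted in dopaminergic neurons only, the control mice were heterozygotes for that allele, and all were F2 mice of 129Sv and C57BL/6 on the RiboTag background. The controls therefore carried an altered Tfr1 allele too, and no unprecipitated lysate was among the 14 libraries. The driver of the deletion is not given in the labels used here.

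The labels of 2 libraries were doubtful. By the Tfrc probe set 1452661_at, the other control libraries read 11.1 to 11.7 and the other Tfr1-null libraries 12.8 to 13.3. The library labelled Tfr1-null 3 weeks 1, whose source name calls it a control, read 11.2, and the library labelled control 10 weeks 1 read 13.1. Which exons were deleted is not given, and 5 of the 6 Tfrc probe sets were brighter in the Tfr1-null groups of those 12 libraries, so signal here separates the genotypes but does not measure the deletion. Neither library was moved to another group. Differences of the members are given for all 14 libraries as labelled and for the 12 without those libraries, a choice that rests on their Tfrc values and not on any member. Dopaminergic identity was clear in every library, with Th, the enzyme that makes the dopamine precursor, between 13.5 and 14.6 on arrays whose medians were 6.41 to 7.43. Eif2s3y, a Y-linked gene, read above Xist in 1 of 3 controls and 0 of 4 Tfr1-null libraries at 3 weeks and in all 7 libraries at 10 weeks. Whether libraries came from separate animals is not labelled, so the errors measure the spread between these samples. In bulk RNA such as this, fewer cells of a type and less RNA per cell cannot be told apart.

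For 5 members the RefSeq table held the 250 bases before a transcription start. The sequences of Prph and Ina, both filament genes, are shown because Prph was lower in Tfr1-null libraries by more than any other member, while the brightest Ina probe set lay near 0 difference. They run 5′ to 3′ and end at the base before the start, on GRCm38.p6, plus strand, at chr15:99054924-99055173 for Prph and chr19:47014431-47014680 for Ina. Capitals mark a TATA box (TATAAA), searched with the hypoxia response core ACGTG and the AP-1 site TGANTCA on both strands.
Prph: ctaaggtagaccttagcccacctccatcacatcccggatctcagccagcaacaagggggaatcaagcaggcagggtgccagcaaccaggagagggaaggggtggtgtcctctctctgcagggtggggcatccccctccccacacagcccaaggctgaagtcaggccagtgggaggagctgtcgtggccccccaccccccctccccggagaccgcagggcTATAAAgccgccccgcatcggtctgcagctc
Ina: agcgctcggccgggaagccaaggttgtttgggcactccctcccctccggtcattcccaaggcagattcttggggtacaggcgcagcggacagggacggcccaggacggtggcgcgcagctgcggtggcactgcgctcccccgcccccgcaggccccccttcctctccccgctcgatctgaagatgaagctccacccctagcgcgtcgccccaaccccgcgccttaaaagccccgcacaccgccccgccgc
Prph held 1 TATA box, 31 bases before the start, and neither of the other motifs. The sequences of Ina, Nes, Map2 and Tubb3 held none of the 3 motifs. TATAAA is found in 12.4% of 32851 promoters of this length, ACGTG in 16.6% and TGANTCA in 6.75%. These are matches of letters and were not tied to any reading of the arrays.

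Prph gave the lowest difference of all members at both ages. Its probe set 1422530_at, the only Prph probe set with an mRNA accession in the annotation, read 9.02, 8.50 and 8.40 on the log2 scale in controls at 3 weeks. The Tfr1-null libraries 2, 3 and 4 of that age read 6.22, 6.70 and 6.48, and the doubtful library 1 read 8.70. That library lay inside the range of the controls, far above the other Tfr1-null libraries. At 10 weeks controls 2, 3 and 4 read 9.91, 9.41 and 9.88 and the doubtful control 1 read 8.83, while the Tfr1-null libraries read 6.93, 7.38 and 7.66. The groups did not overlap at 10 weeks with or without the doubtful control, and at 3 weeks they did not overlap only once the doubtful library was left out.

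In the 12 libraries the Tfr1-null minus control difference of this probe set was -2.18 log2 units (SE 0.23, 4.52-fold lower) at 3 weeks and -2.41 (SE 0.23, 5.31-fold lower) at 10 weeks. In the 14 libraries as labelled the differences were -1.62 (SE 0.49) and -2.19 (SE 0.49). The difference between the ages was -0.23 (SE 0.33) in 12 libraries and -0.57 (SE 0.69) in 14, smaller than its error in both. Because this reading chose the gene, these sizes are no test of it.

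**Figure D1:**
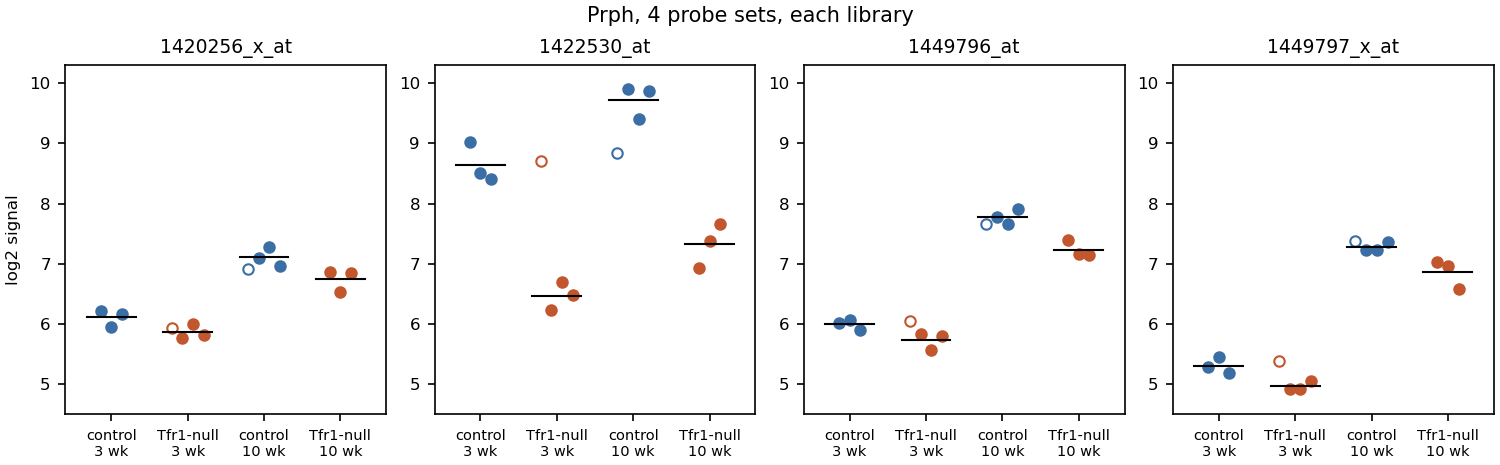
Log2 signal of the 4 Prph probe sets in each library, by group (control blue, Tfr1-null orange), with open circles for the doubtful libraries (Tfr1-null 3 weeks 1, control 10 weeks 1) and a line at the mean of the other libraries. In 1422530_at the Tfr1-null libraries other than the open one lie between 6.22 and 7.66, below every control, and the other 3 probe sets show smaller differences on the same axis.

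The 3 other Prph probe sets pointed the same way with smaller differences. 1449796_at read 7.66, 7.77, 7.66 and 7.92 in the 10-week controls, the doubtful library first, and 7.40, 7.16 and 7.15 in the Tfr1-null libraries. All its Tfr1-null libraries were below all controls, by -0.55 (SE 0.11) in 12 libraries. 1449797_x_at and 1420256_x_at differed by -0.42 (SE 0.13) and -0.37 (SE 0.13) at 10 weeks, also without overlap, and lay below the array median in every library. At 3 weeks the 3 probe sets differed by -0.34 to -0.25 in 12 libraries, and 1420256_x_at overlapped between the groups. In 14 libraries they differed by -0.23 to -0.18 at 3 weeks, with overlap in each, and by -0.52 to -0.32 at 10 weeks without overlap. The 4 probe sets thus shared a direction at both ages and differed in size by over 1.5 log2 units.

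Of the 25 member probe sets, limma (moderated linear model, Benjamini-Hochberg adjustment over all 45037, adjusted p under 0.05 counted as called) called 1 at 3 weeks in 12 libraries, Prph 1422530_at. Over all probe sets 0.797% were called in that comparison. At 10 weeks it called 3, Prph 1422530_at, Prph 1449796_at and Nefh, all lower in Tfr1-null, beside 6.76% of all probe sets. With all 14 libraries as labelled it called 0 of 25 at either age, beside 0% of all probe sets at 3 weeks and 0.377% at 10 weeks. Of the 25 probe sets, 1 and 9 had an unadjusted p under 0.05, beside 3.62% and 17.2% of all probe sets. The median difference of the members in 12 libraries was -0.10 at 3 weeks and 0.05 at 10 weeks, against 0.00 for all probe sets at both ages. The call of Prph 1422530_at was kept at both ages when each of the 12 libraries was left out in turn. The call of 1449796_at was lost without Tfr1-null 10 weeks 3 (which left 1 member probe set called), and the call of Nefh was kept in only 1 of the 12 refits. As the same contrast chose the members, nothing is read from these counts.

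**Figure D2:**
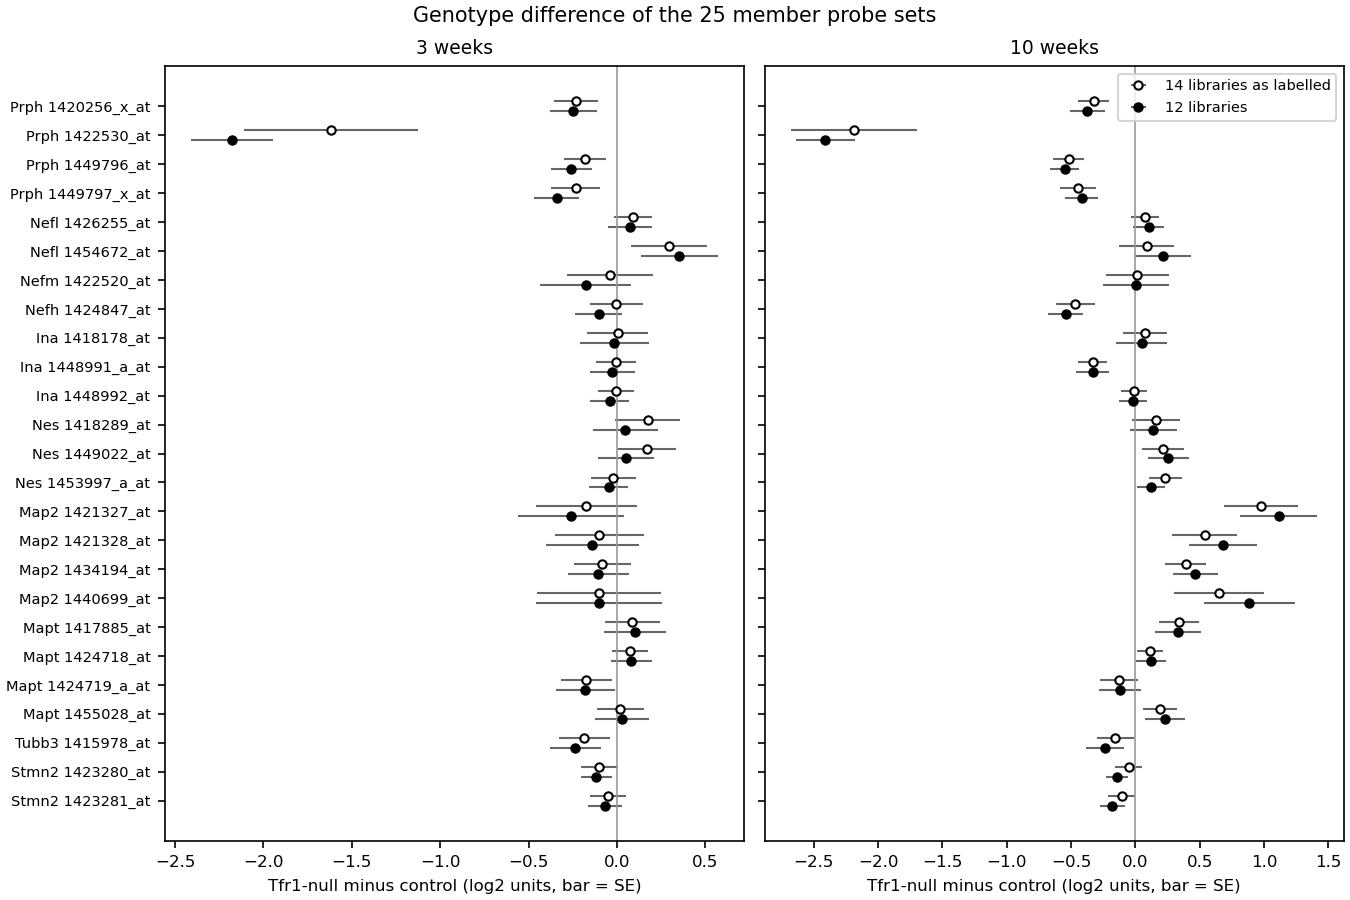
Tfr1-null minus control in log2 units for the 25 member probe sets at 3 weeks (left) and 10 weeks (right), open circles for 14 libraries as labelled, filled circles for 12 libraries, bars for SE. Prph 1422530_at lies at -2.18 and -2.41 in 12 libraries, and the other 24 probe sets lie between -0.55 and 1.11.

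Among the neurofilament subunits, only the heavy chain showed separated groups at 10 weeks. Nefh, whose long phosphorylated tail projects from the filament, read 12.17, 11.93 and 11.65 in controls 2, 3 and 4 and 11.62 in the doubtful control, against 11.50, 11.19 and 11.44 in Tfr1-null libraries. Every Tfr1-null library was below every control, by -0.54 (SE 0.13) in 12 libraries and -0.47 (SE 0.15) in 14. At 3 weeks the groups overlapped, with a difference of -0.10 (SE 0.13) in 12 libraries and 0.00 (SE 0.15) in 14. The difference between the ages, -0.44 (SE 0.19) in 12 libraries and -0.46 (SE 0.21) in 14, was not called.

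The light and medium subunits differed little. Nefl, the core on which the others assemble, read 12.4 to 12.5 in controls and 12.5 to 12.7 in Tfr1-null libraries at 3 weeks by 1426255_at, and 13.2 to 13.6 against 13.4 to 13.7 at 10 weeks in 12 libraries. Its differences were 0.07 and 0.10 (SE 0.12 each), and the second Nefl probe set, 1454672_at, gave 0.35 and 0.21 (SE 0.22 each). At 3 weeks all its Tfr1-null libraries, the lowest at 10.70, were above the controls, the highest at 10.69. Nefm differed by -0.18 and 0.00 (SE 0.26 each) in 12 libraries. At 3 weeks its Tfr1-null libraries, 9.36 to 9.61, all lay just below the controls, 9.61 to 9.66, while the doubtful library read 10.01 and the 10-week controls 2 to 4 spread from 10.40 to 11.51. In 14 libraries the differences at 3 and 10 weeks were 0.09 and 0.08 for Nefl 1426255_at (SE 0.11 each), 0.29 and 0.09 for 1454672_at (SE 0.21 each) and -0.04 and 0.02 for Nefm (SE 0.24 each).

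Ina, the fourth partner of the neurofilament triplet in central neurons, gave differences of -0.04 to -0.02 at 3 weeks over its 3 probe sets (SE 0.11 to 0.20, 12 libraries). At 10 weeks 1418178_at and 1448992_at gave 0.05 and -0.02, while 1448991_a_at gave -0.33 (SE 0.13) with overlapping groups. The probe sets of Ina therefore disagreed at 10 weeks. In 14 libraries they gave -0.01 to 0.00 at 3 weeks, and 0.08, -0.01 and, for 1448991_a_at, -0.33 (SE 0.11) at 10 weeks. Tfr1-null 10 weeks 2 read highest of that age in 1418178_at, at 13.38 against 12.49 to 12.87 in the other libraries.

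Nes, the filament of neural progenitors, was below the array median in all libraries on all 3 probe sets, and 1418289_at was below the 25th percentile in 5 libraries. Its differences were -0.05 to 0.05 at 3 weeks and 0.12 to 0.26 at 10 weeks in 12 libraries, and -0.02 to 0.17 and 0.16 to 0.23 in 14, the groups overlapping in each.

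Map2, which stabilises microtubules in dendrites, read higher in Tfr1-null libraries at 10 weeks in all 4 probe sets. By 1421327_at controls 2, 3 and 4 read 11.98, 10.97 and 12.43, the doubtful control 12.36, and the Tfr1-null libraries 12.85, 13.09 and 12.79. Every Tfr1-null library lay above every control. The difference was 1.11 (SE 0.30) in 12 libraries and 0.97 (SE 0.29) in 14, and it was not called in either. The other probe sets gave 0.68 (SE 0.26), 0.47 (SE 0.17) and 0.88 (SE 0.35) in 12 libraries, of which only 1440699_at overlapped. In 14 libraries they gave 0.54, 0.39 and 0.65, and all 3 overlapped.

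The Map2 difference rested partly on 1 control. Control 10 weeks 3 was the lowest library of that age in all 4 Map2 probe sets, and without it the difference came to 0.70 for 1421327_at, 0.33 for 1421328_at, 0.35 for 1434194_at and 0.69 for 1440699_at. At 3 weeks the same probe sets differed by -0.26 to -0.10 (SE 0.17 to 0.35) in 12 libraries and by -0.17 to -0.08 in 14, with overlap in each. The difference between the ages was 1.37 (SE 0.42) for 1421327_at and 0.57 to 0.99 for the others in 12 libraries, and 1.15 (SE 0.40) and 0.47 to 0.75 in 14. Of the 25 member probe sets limma called 0 for this contrast in 12 libraries, beside 0.14% of all, and 0 in 14, beside 0%. Of the same 25, 3 and 2 had an unadjusted p under 0.05, beside 10.7% and 6.88% of all.

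Mapt encodes tau, which binds axonal microtubules. Its 4 probe sets differed by -0.18 to 0.10 at 3 weeks and -0.12 to 0.33 at 10 weeks in 12 libraries, with SE of 0.12 to 0.18, and by -0.17 to 0.09 and -0.13 to 0.34 in 14. Without control 10 weeks 3 the 10-week difference of 1455028_at went from 0.23 to 0.04 and that of 1417885_at from 0.33 to 0.21. At 10 weeks 1424718_at alone did not overlap in 12 libraries, and by a narrow margin, with controls at 12.40 to 12.42 and Tfr1-null libraries at 12.43, 12.44 and 12.71.

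Tubb3, the neuronal beta-tubulin, read 13.50, 13.45 and 13.40 in 3-week controls and 13.24, 13.17 and 13.24 in Tfr1-null libraries 2, 3 and 4. Those groups did not overlap, by -0.24 (SE 0.15), and the doubtful library, at 13.42, lay among the controls. In 14 libraries the differences were -0.19 and -0.16 (SE 0.15 each). At 10 weeks the difference was -0.24 (SE 0.15), or -0.07 without control 2. Control 2 at 14.57 stood above controls 3 and 4, at 14.00 and 14.14, which overlapped with the Tfr1-null libraries at 13.79 to 14.11. Stmn2, a stathmin that binds tubulin dimers in growing axons, gave -0.12 and -0.14 (SE 0.09 each) by 1423280_at and -0.07 and -0.18 (SE 0.10 each) by 1423281_at in 12 libraries. In 14 libraries these were -0.10 and -0.05, and -0.05 and -0.11 (SE 0.10 each). At 3 weeks all Tfr1-null libraries were below all controls in 1423280_at, the highest at 12.42 and the lowest control at 12.45, with the doubtful library in or out. At 10 weeks this held for 1423281_at in 12 libraries.

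**Figure D3:**
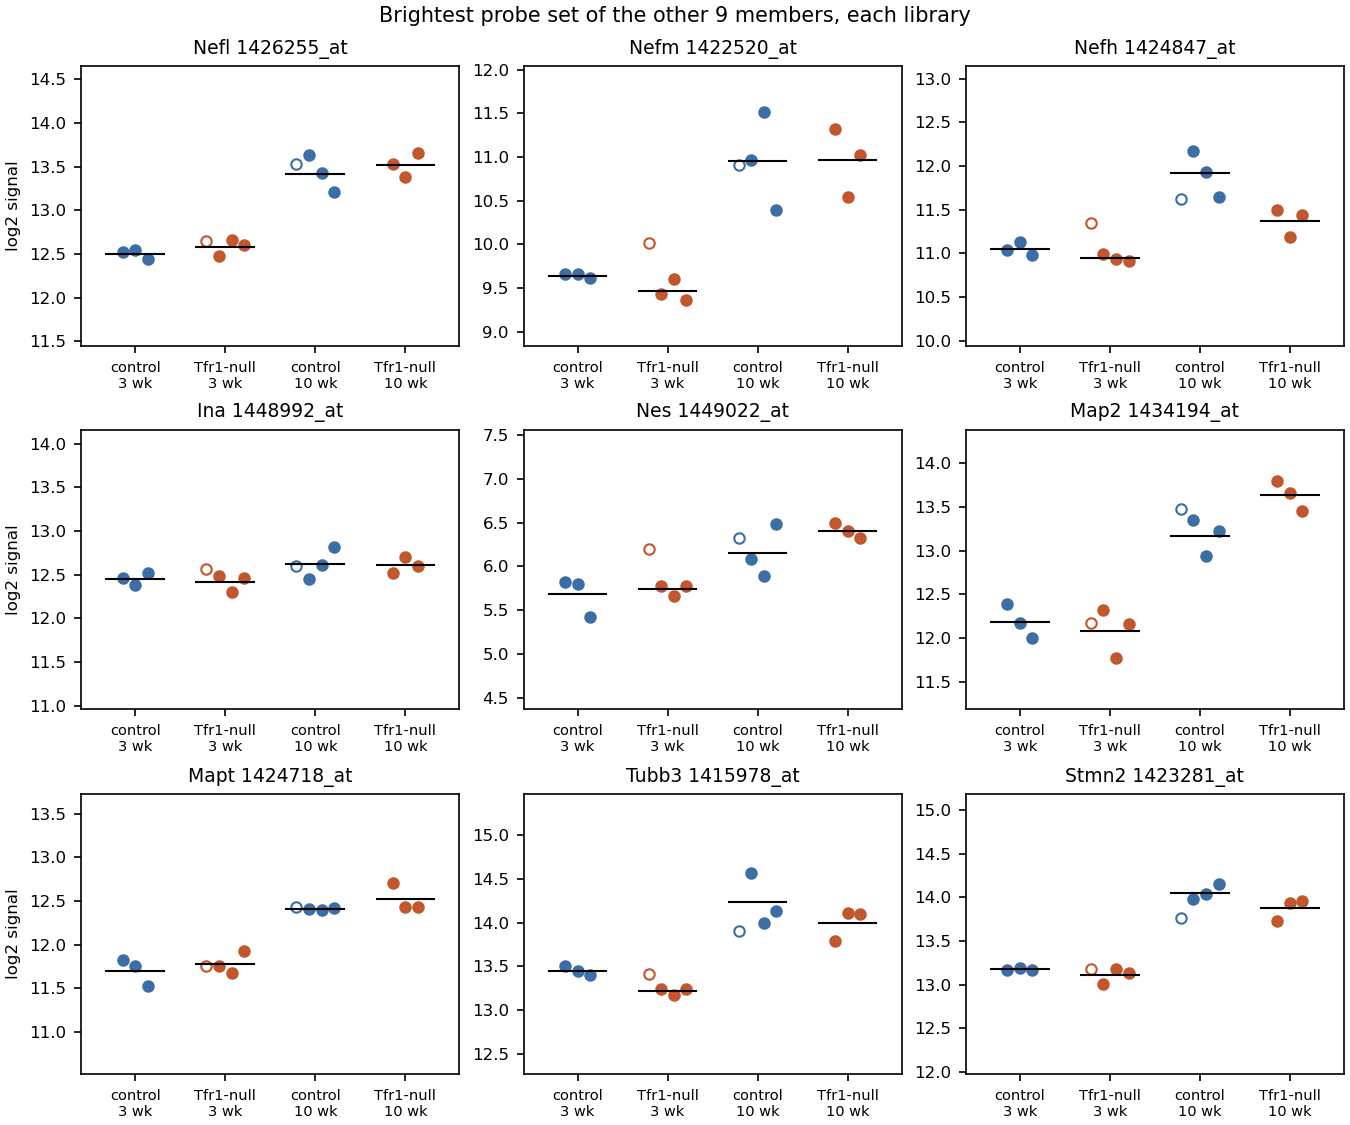
Log2 signal of the brightest probe set of each of the other 9 members in every library, by group, each panel spanning 3.2 log2 units, open circles for the doubtful libraries and lines at the mean of the others. At 10 weeks Nefh lies lower in the Tfr1-null libraries (11.19 to 11.50) than in the controls (11.62 to 12.17), Map2 lies higher apart from the open circle, and in the 12 libraries the remaining panels overlap apart from narrow margins in Mapt and Stmn2.

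Over the members, 6 of 25 probe sets at 3 weeks had all Tfr1-null libraries below all controls in the 12 libraries and 1 had them above, and at 10 weeks 6 lay below and 4 above. Of all probe sets, 9.37% lay below and 10.7% above at 3 weeks, and 9.55% and 9.23% at 10 weeks. In the 14 libraries as labelled the member counts were 1 and 1 at 3 weeks and 5 and 1 at 10 weeks, where 3.69% and 3.08% of all probe sets, and 4.27% and 4.4%, were separated in this way. The contrast that chose the members is the one counted here, so nothing is read from these shares. Prph supplied 3 of the 6 at 3 weeks and 4 of the 6 at 10 weeks.

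The gene whose libraries moved most like Prph, after the mean of each age was subtracted from its 14 libraries, was Vill, with a Pearson r of 0.97. Tceal1 (0.97), Ipcef1 (0.96), Stx3 (0.96) and Efhc2 (0.95) followed, each with both doubtful libraries included. In 12 libraries these 5 genes differed by -2.06 to -1.04 at 3 weeks and by -2.26 to -1.11 at 10 weeks. The closest other members were Nefh (0.70), Tubb3 (0.67) and Stmn2 (0.60). These libraries share the genotype groups, so the r is a description only.

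The other genes of the cytoskeleton were taken from 8 lists of 152 genes, of which 142 were measured, each by its brightest probe set. The lists held textbook genes not picked for how they moved, though earlier results of these data were known. In 12 libraries limma called 1 of 142 at 3 weeks, lower in Tfr1-null, where 1.31% of all genes were called. At 10 weeks it called 11, of which 7 rose and 4 fell, where 8.75% of all genes were called. The 11 became 4 to 6 when any 1 of 8 libraries was left out, namely each library of 3 weeks, Tfr1-null 10 weeks 1 or Tfr1-null 10 weeks 3. The call at 3 weeks became 2 without Tfr1-null 10 weeks 1. In 14 libraries as labelled it called 0 at both ages, where 0% and 0.434% of all genes were called. Of the 142, 4 and 30 had an unadjusted p under 0.05, beside 4.43% and 19.4% of all genes. The median difference of the 142 genes was -0.02 at 3 weeks and 0.07 at 10 weeks in 12 libraries, against 0.01 and -0.01 for all genes. Both counts of calls in 12 libraries lie near the share of all genes, so nothing particular to the cytoskeleton is read from them. The 47 with an unadjusted p under 0.05 at 10 weeks lie above the share of all genes, and that excess was not tested.

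Of 30 microtubule-binding proteins, 1 was called at 3 weeks and 4 at 10 weeks in 12 libraries, where 1.31% and 8.75% of all genes were called. Tppp3, of the tubulin polymerization-promoting protein family, read 11.04, 10.98 and 11.25 in 3-week controls and 9.37, 9.67 and 9.67 in Tfr1-null libraries 2, 3 and 4, with the doubtful library at 10.94. At 10 weeks controls 2, 3 and 4 read 12.09, 12.85 and 12.07, the doubtful control 10.71 and Tfr1-null libraries 10.51, 10.98 and 10.76. Without the doubtful libraries the groups stood apart at both ages, and each doubtful library lay with or near the group opposite to its label. In 12 libraries Tppp3 fell by 1.52 at 3 weeks (SE 0.21, limma adjusted p 0.0059) and fell by 1.59 at 10 weeks (SE 0.21, limma adjusted p 0.0018). It was not called in 14 libraries (adjusted p 1 and 0.20).

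The 3 others called at 10 weeks were Dpysl3, Map7d1 and Camsap2. Dpysl3, a CRMP protein of axon growth, rose by 0.59 (SE 0.15, limma adjusted p 0.044). Map7d1 rose by 0.55 (SE 0.13, adjusted p 0.030) and Camsap2, which caps microtubule minus ends, by 0.37 (SE 0.09, adjusted p 0.043). When each of the 12 libraries was left out in turn the calls were kept in 2, 6 and 1 of 12 refits.

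Stathmins and severing or modifying enzymes gave 2 calls of 20 at 10 weeks in 12 libraries, beside 8.75% of all genes. Stmn4, a stathmin of the brain and a relative of Stmn2, read 13.28, 13.41 and 13.25 in controls 2, 3 and 4, 14.18 in the doubtful control and 14.39, 14.25 and 14.29 in Tfr1-null libraries. The doubtful control lay nearest to the Tfr1-null libraries. Stmn4 rose by 0.99 (SE 0.09, limma adjusted p 0.000228) in 12 libraries, and its adjusted p in 14 was 0.071. At 3 weeks its difference was 0.09 (SE 0.09), and the difference between the ages, 0.91 (SE 0.12, adjusted p 0.030), was called in 12 libraries but not in 14 (adjusted p 0.67). Kif2a, a kinesin that depolymerises microtubules, rose by 0.38 (SE 0.10, adjusted p 0.043), a call kept in 2 of 12 refits.

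Tubulins gave 2 calls of 10 at 10 weeks in 12 libraries, both lower, beside 8.75% of all genes, and 0 in 14. Nothing is read from a count this small. Tubb4b, a widely expressed beta-tubulin, read 13.62, 13.56 and 13.56 in controls 2, 3 and 4, 12.97 in the doubtful control and 12.76, 13.14 and 12.98 in Tfr1-null libraries. It fell by 0.62 (SE 0.11, limma adjusted p 0.0081) by its brightest probe set, while its 5 dim probe sets gave -0.25 to 0.13. Tuba8, an alpha-tubulin, fell by 1.98 (SE 0.51, adjusted p 0.044), with control 10 weeks 3 at 11.02 above controls 2 and 4 at 8.68 and 8.90. Without that control the difference was -1.23 (adjusted p 0.027). Its call was kept in 4 of 12 refits, and its second probe set was also lower, by -1.22.

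**Figure D4:**
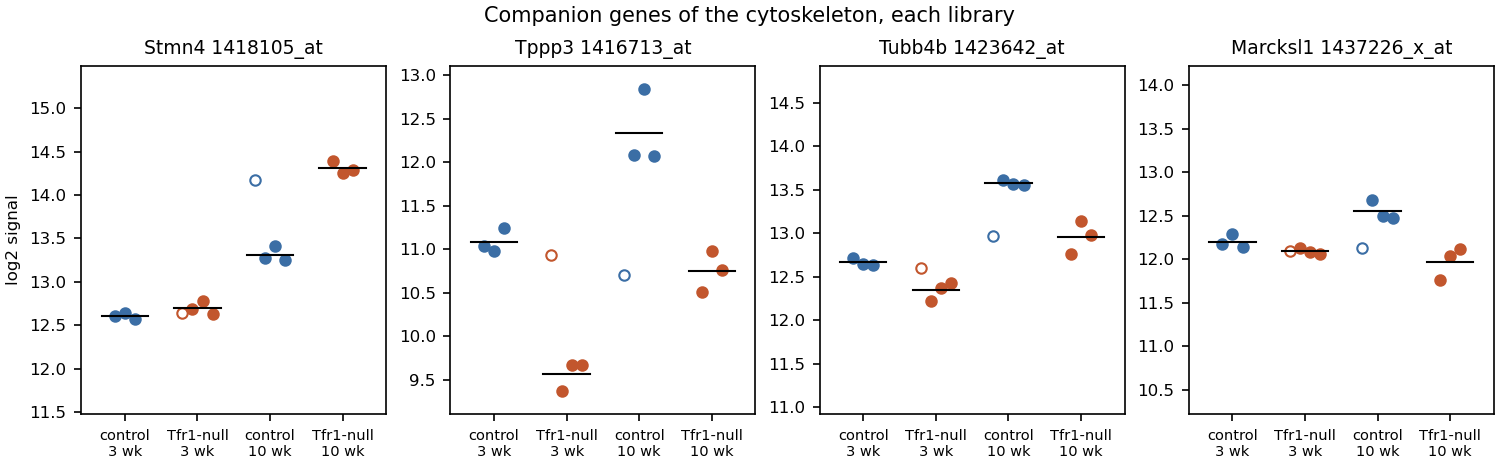
Log2 signal of Stmn4, Tppp3, Tubb4b and Marcksl1 in every library, by group, each panel spanning 4 log2 units, open circles for the doubtful libraries and lines at the mean of the others. At 10 weeks the open control circle lies at 14.18 in Stmn4 and 10.71 in Tppp3, near or within the Tfr1-null libraries, and in Tppp3 the 3-week open circle lies at 10.94, near the controls.

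Transport and actin genes gave 3 calls at 10 weeks in 12 libraries, beside 8.75% of all genes. Of 23 kinesin and dynein genes, Kif3b, a subunit of the kinesin-2 motor, rose by 0.58 (SE 0.15, limma adjusted p 0.042), kept in 2 of 12 refits. Of 29 actin genes, Ssh1, a phosphatase that activates cofilin, rose by 1.14 (SE 0.29, adjusted p 0.044), kept in 2 of 12. Its other probe sets gave smaller rises of 0.27, 0.30 and 0.59 in 12 libraries, none of them called. Marcksl1, an actin-binding substrate of protein kinase C, fell by 0.58 (SE 0.11, adjusted p 0.012), was lower in all 4 of its probe sets and was kept in all 12. Tppp3, Stmn4 and Tubb4b were likewise kept in all 12. With the libraries of 10 weeks fitted alone, only Stmn4 of the 11 genes stayed called, and Tppp3, Tubb4b and Marcksl1 did not.

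In 14 libraries as labelled the 11 genes kept the sign of their 10-week differences, with limma adjusted p between 0.071 and 0.20. The positive differences were 0.78 for Stmn4, 0.91 for Ssh1, 0.53 for Dpysl3, 0.51 for Kif3b, 0.50 for Map7d1, 0.34 for Kif2a and 0.31 for Camsap2, none of them called. The negative ones were -1.55 for Tuba8, -1.18 for Tppp3, -0.47 for Tubb4b and -0.47 for Marcksl1.

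The other lists gave 0 calls by limma. Among 10 other intermediate filament genes the smallest p values in 12 libraries belonged to Sync at 3 weeks (difference -0.59, SE 0.18, adjusted p 0.29) and the nuclear lamin Lmna at 10 weeks (1.06, SE 0.35, adjusted p 0.098). Among 10 genes of filament linkers, kinases and turnover they belonged to Cdk5 (-0.13, SE 0.10) and Gsk3b (0.22, SE 0.09), both tau and neurofilament kinases. Among 10 spectrin and ankyrin genes they belonged to Epb41l3 (0.25, SE 0.10) and Add2 (0.34, SE 0.11). At 3 weeks the tubulin Tubb6 (-0.40, SE 0.13), the dynein chain Dync1i1 (-0.32, SE 0.12), the actin monomer binder Tmsb4x (-0.30, SE 0.09) and the severing subunit Katna1 (0.26, SE 0.13) had the smallest p of their lists and were not called.

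With 14 libraries as labelled the smallest p of those lists belonged in part to other genes, among them Krt18 at 3 weeks (-1.14, SE 0.60) and Dync1i2 (-0.21, SE 0.09). At 10 weeks they were the lamin Lmnb2 (-0.52, SE 0.20) and Add1 (0.19, SE 0.10), and none was called.

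Marker genes of other cells were read beside these results. Of 12 dopaminergic markers limma called 0 at 3 weeks and 1 at 10 weeks, Drd2, which fell by 0.85 (SE 0.12, adjusted p 0.0034, 12 libraries). Of all genes 1.31% and 8.75% were called in those comparisons, so nothing is read from that count. The summed level of the dopaminergic markers was 16.0 to 16.1 in Tfr1-null and 16.2 in control libraries at 3 weeks. At 10 weeks it was 16.66 to 16.91 against 17.03 to 17.10, and the 12 libraries did not overlap at either age. With the doubtful libraries the ranges became 16.02 to 16.17 against 16.18 to 16.23 at 3 weeks, and at 10 weeks they overlapped, since the doubtful control read 16.69. In the 12 libraries these sums were lower in Tfr1-null libraries, as Prph was, and their part in the result was not tested.

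Markers of the neurons best known for peripherin were read too. Of 7 measured markers of cholinergic and motor neurons, 6 (Chat, Slc5a7, Isl1, Phox2a, Mnx1 and Tbx20) were below the array median in every library, and Mnx1 and Tbx20 below the 25th percentile. Their summed level was 7.11 to 7.17 in Tfr1-null and 7.05 to 7.19 in control libraries at 3 weeks, and 8.48 to 8.80 against 8.55 to 8.88 at 10 weeks in 12 libraries, overlapping at both ages. Of 8 sensory neuron markers 5 (Pou4f1, Prrxl1, Piezo2, Runx3 and Scn10a) were below the median in every library, and Ntrk3, Avil and Pvalb were not. Pvalb differed by -0.69 (SE 0.33) and Ntrk3 by 0.44 (SE 0.21) at 10 weeks in 12 libraries, neither called. The sums overlapped too, at 11.2 to 11.5 against 11.3 to 11.5 and 12.4 to 13.0 against 12.5 to 12.6 in 12 libraries. Limma called 0 of either list at either age, where 1.31% and 8.75% of all genes were called in 12 libraries.

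The GABAergic sum was 12.2 to 12.5 in Tfr1-null against 12.0 to 12.2 in control libraries at 3 weeks and 13.1 to 13.5 against 12.8 to 13.1 at 10 weeks, without overlap in the 12 libraries. At 3 weeks the margin was narrow, with the lowest Tfr1-null library at 12.180 and the highest control at 12.177. With the doubtful libraries, at 12.15 and 13.48, the ranges overlapped at both ages. Slc32a1, the vesicular GABA transporter, rose by 0.70 at 10 weeks (SE 0.13, limma adjusted p 0.011), as did Sox9, an astrocyte marker, by 1.14 (SE 0.30, adjusted p 0.047) and Notch1 of neural progenitors by 0.43 (SE 0.12, adjusted p 0.0496). Each was the only call of its list in the 12 libraries. There 8.75% of all genes were called at 10 weeks, so these calls are not read as a change of a cell type. The median difference at 10 weeks was 0.38 over 10 astrocyte markers and 0.39 over 10 microglial markers in 12 libraries, of which 1 (Sox9) and 0 were called, and 0.19 and 0.18 in 14 libraries. The sum of 8 neural progenitor markers at 10 weeks was 11.09 to 11.15 in Tfr1-null against 10.66 to 10.93 in control libraries, and the doubtful control read 11.25. Markers of serotonergic and noradrenergic neurons, glutamatergic neurons, oligodendrocytes and endothelial cells gave 0 calls at either age, and 0 markers of any list were called at 3 weeks. The part of these cells in the higher Map2, Stmn4 and other 10-week readings was not tested.

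Age was not used to choose the members, so control libraries at 10 and 3 weeks were tested against each other. The arrays of the ages differed in level by 0.89 log2 units in the median probe set, and each array was first centred on its median. Age, array processing and the Eif2s3y pattern cannot be told apart here. Limma called 4 of 25 member probe sets in 14 libraries (2 higher and 2 lower, beside 20.1% of all) and 3 in 12 libraries (2 and 1, beside 18.3%), a share no larger than the background.

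Both probe sets that were higher at 10 weeks belonged to Prph, 1449796_at by 0.82 (SE 0.12, limma adjusted p 0.00097) and 1449797_x_at by 1.06 (SE 0.14, adjusted p 0.00056) in 14 libraries. The brighter 1422530_at did not follow, at -0.08 (SE 0.48) in 14 and 0.15 (SE 0.23) in 12 libraries, so the Prph probe sets disagreed on age. Ina 1448992_at was lower by -0.78 (SE 0.11, adjusted p 0.00059) after centring but higher by 0.16 as deposited, and Nes 1418289_at was lower by -0.60 (SE 0.19, adjusted p 0.042) after centring but higher by 0.34 as deposited, with an adjusted p of 0.062 in 12 libraries. The other Ina probe sets gave -0.33 and -0.05 after centring. Without centring 21 of 25 member probe sets were called higher in 14 libraries and 22 in 12, with 0 lower, beside 85.8% and 85.1% of all probe sets called higher and 0.142% and 0.175% called lower.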

How the data were processed

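The values were log2 signals that the authors deposited, made by RMA in Partek 6.5 per the submitters' processing notes, from 50 ng of RNA per library. For hybridization batches, and whether both ages were normalized together, nothing is given in the sources used here. Of 45101 probe sets, 64 array controls were left out. Genes were named by the platform annotation (34958 probe sets with 1 symbol, 932 with several, 9211 with none).

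limma 3.58.1 (R 4.3.3) fitted a mean for each of 4 groups with 1 shared spread per probe set, in 14 and in 12 libraries, and Benjamini-Hochberg adjustment ran over all 45037 probe sets of a contrast, also where 1 probe set per gene was counted. Residual degrees of freedom were 10 and 8, and the median residual SD was 0.217 and 0.202 log2 units. SE is that of a contrast. A gene other than a member was its brightest probe set. The summed level of a marker list is the log2 of its summed linear signals. The number of arrays limits the precision. The script was tested on simulated data. Python 3.11.15 with pandas 2.3.3 was also used.

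The members and lists were chosen with earlier results of these data known. The genotype comparison chose the members, whereas the cytoskeleton lists held textbook genes not picked for how they moved. Named were all members, up to 4 called genes of each list and contrast or the 1 with the smallest p, and the 5 genes most like the member with the widest range. Alternatives were quantile normalization, centring, dim probe sets dropped, ages fitted alone, the replicate block and each library left out. Replicate numbers are shared between groups, but the correlation of same-numbered deviations was -0.05 to 0.15, so the numbers were not taken to pair samples. Leaving out 2 libraries followed from their Tfrc values.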

Additional observations from a re-analysis of the deposited data

Results flagged for a closer look

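In the library labelled Tfr1-null 3 weeks 3, Ina 1448991_a_at read 11.24, where the other libraries of that group read 11.40 to 11.43. In the same library Map2 1421328_at read 9.61, against 9.97 to 10.03 in the others. Both stood far from their group for its range, in 2 of 50 such checks, and chance gives about 1 in 20.

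The genotype difference of Stmn4 1418105_at was larger at 10 weeks than at 3 weeks by 0.91 log2 units (SE 0.12, limma adjusted p 0.030, 12 libraries).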

How the results depend on the processing

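Of 1750 alternative values of member differences, 1748 moved by less than the spread between replicates, and 2 moved by more, both at 10 weeks in 12 libraries under the replicate block (Mapt 1424719_a_at to 0.17 and Stmn2 1423281_at to -0.06). Leaving out 1 library of a group this small cannot move a difference by that spread. Dropping libraries of the other age or dim probe sets, or fitting an age alone, leaves it unchanged. Only the replicate block and quantile normalization could exceed it, so the count is no measure of robustness. Leaving out the doubtful libraries turned calls of 0 in 14 libraries into 1 member probe set and 1 other gene at 3 weeks. At 10 weeks it turned them into 3 member probe sets and 11 other genes. With a replicate block, in 12 libraries, 0 member probe sets and 0 other genes were called at either age, against 1, 1, 3 and 11 without it. Without the doubtful libraries only the numbers 2 and 3 occur in both groups of an age. The block therefore compares those libraries alone and leaves few degrees of freedom, so nothing is read from the lost calls. The differences under the block were -1.99 and -2.14 for Prph 1422530_at and -1.60 at both ages for Tppp3, and 0.92 for Stmn4 at 10 weeks. With each age fitted alone the 12 libraries gave 3 other genes at 3 weeks, and 1 member probe set (Prph 1422530_at) and 1 other gene (Stmn4) at 10 weeks. Libraries of an age correlated at 0.989 to 0.996 at 3 weeks and 0.968 to 0.986 at 10 weeks. The part of this spread in those counts was not tested. With each gene tested among 1 probe set per gene, 17 other genes were called at 10 weeks. The share of all genes called in that setting is not given here, so nothing is read from that count.

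Leaving out each library in turn gave 0 to 1 member probe sets at 3 weeks and 0 to 3 at 10 weeks in 14 libraries, the highest without Tfr1-null 3 weeks 1 and without control 10 weeks 1. In 12 libraries it gave 1 to 4 member probe sets at 10 weeks, 1 being without Tfr1-null 10 weeks 3. Other genes ranged from 0 to 14 at 10 weeks in 14 libraries, and from 1 to 2 at 3 weeks and 4 to 15 at 10 weeks in 12 libraries. The 14 came without control 10 weeks 1, the 2 without Tfr1-null 10 weeks 1, and 4 to 6 without any of the 3-week libraries, Tfr1-null 10 weeks 1 or Tfr1-null 10 weeks 3. For age in controls, the values as deposited gave 21 member probe sets in 14 libraries and 22 in 12, all higher, as were 85.8% and 85.1% of all probe sets. Quantile normalization gave 5 member probe sets in 12 libraries. Nes, Prph 1420256_x_at and 1449797_x_at lie below the array median in every library, and Prph 1449796_at in 9 of 14, which limits how well low signal is measured.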
